A study of Mus musculus with 4 samples.

Results

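The hexokinase family and the regulatory protein Gckr were followed as 5 genes, Hk1, Hk2, Hk3, Hkdc1 and Gckr, taken by gene symbol from a count table of 51826 rows. They were chosen by name with the WT against Eko values of the family already known from these data, so their levels and differences are given as a description. The libraries were made from quadriceps polyA RNA of 2 wild-type (WT) and 2 Mef2dα2 Eko mice. All 4 mice were sedentary males of about 20 weeks of age in the C57BL6/J background, housed on standard chow, and their muscles were collected within a short window of the day. In the Eko mice, the muscle-specific α2 exon of Mef2d, which encodes a transcription factor of the MEF2 family, had been deleted by CRISPR-Cas9 in embryos. The deletion is carried in the germline and so is present in every cell type of the muscle, and the WT mice are littermates per the study. The founder line of the sequenced mice was not given in the sources used here.

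Hexokinases add a phosphate to glucose after it enters the cell, which traps it as glucose 6-phosphate for glycolysis, glycogen synthesis or the pentose phosphate pathway. Skeletal muscle is known for HK2, an insulin- and exercise-responsive enzyme that binds the outer mitochondrial membrane, while HK1 is the widespread enzyme of brain and red blood cells and HK3 is known from white blood cells. HKDC1 is a more recently described member of the family, and GCKR is best known from liver, where it binds and inhibits a hexokinase.

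Total counts were between 72626757 and 85176059 per library, at which 3 counts corresponded to between 0.0348 and 0.0419 CPM, the count scaled to a fixed library total. The library WT 1 stood apart from the rest in a measure that gives most weight to genes with many counts. Its chi-square per degree of freedom over genes was between 119 and 215 against each of the others, and between 35.5 and 42.0 for the pairs that did not include it. Gene by gene the contrast was small, with a median log2 gap of 0.153 between the WT mice and 0.135 between the Eko mice. The tissue label fitted the markers, since all 8 muscle fibre markers were measured and they summed to between 113977 and 118850 CPM. The targeted gene, Mef2d, had 19687 and 18393 counts in WT mice and 21695 and 17206 in Eko mice, with a log2 fold change of 0.016 (SE 0.083). These counts cover the whole gene, so they do not show the α2 exon and check nothing about its deletion.

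Hk2 was by far the most abundant member and differed little between the genotypes. The gene lies at chr6:82725025-82774454 on the minus strand of GRCm38 (ENSMUSG00000000628.10), and its antisense neighbour Gm17034 shares 0 bases of exon with it. Hk2 had 502.8 CPM (38168 counts) in WT 1, 465.9 CPM (37684 counts) in WT 2, 459.4 CPM (39615 counts) in Eko 1 and 485.2 CPM (34705 counts) in Eko 2. The WT mice were the highest and the third in this order, so the groups overlapped. Mean levels were 484 ± 26.1 CPM (SD, n = 2) in WT and 472 ± 18.2 CPM (SD, n = 2) in Eko. The log2 fold change in Eko against WT was -0.036 (SE 0.074), with a 95% interval from -0.21 to 0.14, which corresponds to between 0.863 and 1.10 times the WT level. In edgeR's quasi-likelihood test, with adjustment over all 16120 genes, the adjusted p was 0.890. Without WT 1 the log2 fold change was 0.021, and without Eko 1 it was 0.016. A change within this interval was not detectable with 2 mice per genotype.

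**Figure D1:**
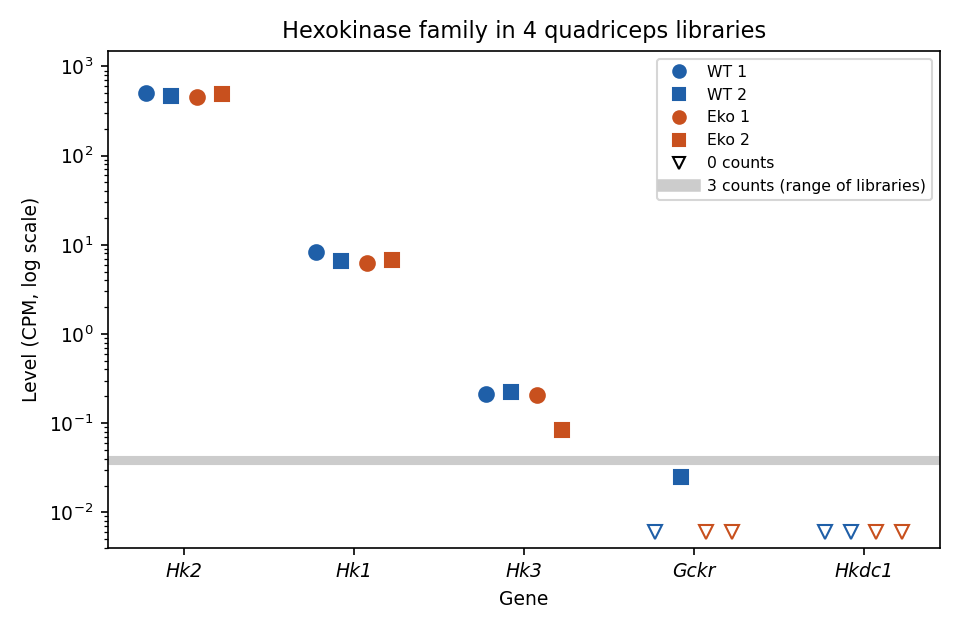
Level of each member in every library, in CPM on a log scale, with WT in blue, Eko in orange, replicate 1 as circles and replicate 2 as squares. Open triangles mark 0 counts and the grey band marks 3 counts. Hk2 sits between 459.4 and 502.8 CPM in all 4 mice, Hk1 between 6.26 and 8.27 CPM, Hk3 between 0.0839 and 0.223 CPM, and Gckr and Hkdc1 lie below the band.

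The study measured Hk2 by RT-qPCR with a primer pair whose place in the transcript shows which part of the gene that assay reads. Both primers are printed 5′ to 3′, each with the bases that matched the main Hk2 transcript in GENCODE M21 in lower case.
Hk2 forward: agcctcggtttctctatttggcc
Hk2 reverse: agacgcatgtggtagagatactg
The forward primer lies at bases 434 to 456 of that transcript, ahead of the first coding base at 475, and the reverse primer is the complement of bases 544 to 566, inside the coding sequence. The amplicon is 133 bp, and neither primer had an exact match in a transcript of another member (0 transcripts). No value of that assay is used here.

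CPM per kb of exon divides a level by the union of the gene's annotated exons, so comparisons between genes depend on that length. On this scale, Hk2 stood at 81.1 ± 4.38 in WT and 79.1 ± 3.05 in Eko (SD, n = 2 each). It ranked 296 of the 15619 tested genes with a length, above 98.1% of them. Among the 41 genes of the family and of the lists for glucose transport, sugar kinases and glucose 6-phosphate use, Hk2 ranked 8 by its mean over the 4 mice. The genes next above it were Gpi1, which makes fructose 6-phosphate, at 84.0 ± 6.65 CPM per kb, and Gys1, the muscle glycogen synthase, at 86.8 ± 7.63 CPM per kb (SD, n = 4). The range of Hk2 over the mice, from 76.96 to 84.24 CPM per kb, overlapped those of both. Slc2a4, the insulin-responsive glucose transporter GLUT4, was higher and its range did not overlap that of Gys1, with 115 ± 3.45 CPM per kb (SD, n = 4). In every library Hk2 was lower than Slc2a4 on this scale, at 0.708, 0.704, 0.672 and 0.697 times its level in WT 1, WT 2, Eko 1 and Eko 2. Pfkm, the muscle phosphofructokinase that commits sugar to glycolysis, was the most abundant of these genes at 658 ± 38.7 CPM per kb, and Hk2 stood at 0.118 times its level in WT and 0.126 times in Eko. Below Hk2 there was a wide step to Slc37a4, the glucose 6-phosphate translocase of the endoplasmic reticulum, at 24.9 ± 1.93 CPM per kb, and their ranges did not overlap.

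**Figure D2:**
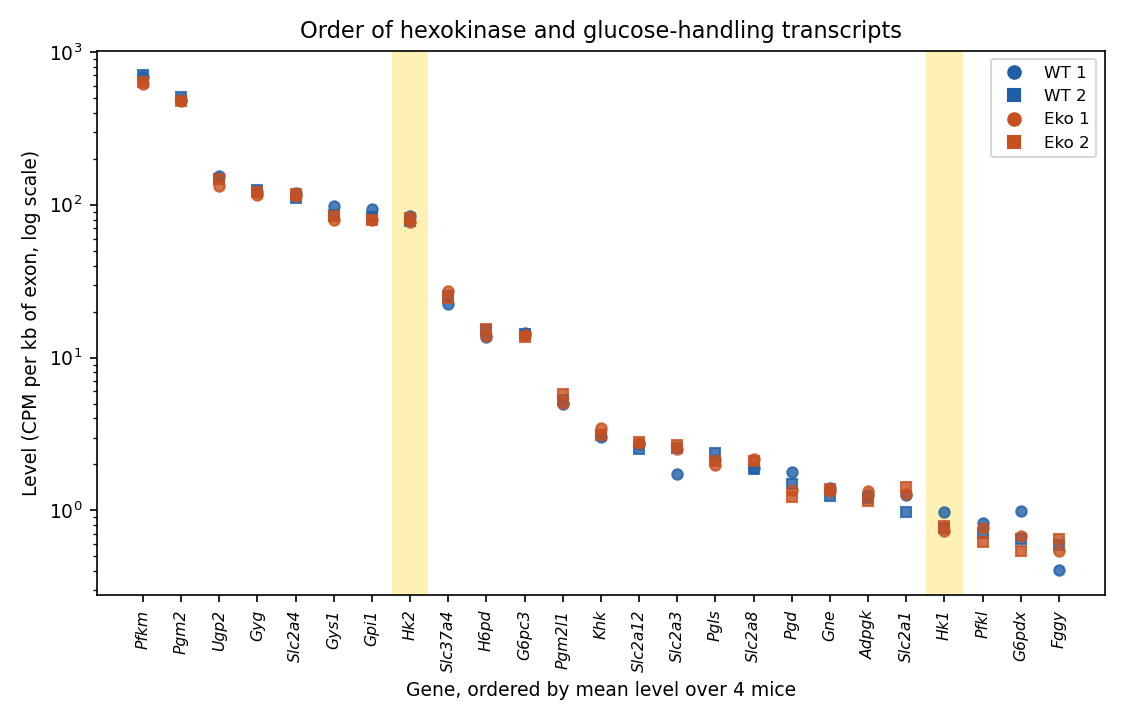
Level in CPM per kb of exon (log scale) of the hexokinases and of genes of glucose handling whose mean was at least 0.5, ordered by the mean over 4 mice, with WT in blue, Eko in orange, replicate 1 as circles and replicate 2 as squares. The shaded columns are Hk2, which lies beside Gpi1 and Gys1, and Hk1, which lies beside Slc2a1 and Pfkl.

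Hk1 was present at a low level in every library and was highest in WT 1. The gene lies at chr10:62268855-62379908 on the minus strand (ENSMUSG00000037012.18). Its exons overlap those of the antisense gene Hk1os by 157 bp, and because the strand setting of the counting was not stated, reads in that stretch may belong to either gene. Hk1 had 8.27 CPM (628 counts) in WT 1, 6.59 CPM (533 counts) in WT 2, 6.26 CPM (540 counts) in Eko 1 and 6.77 CPM (484 counts) in Eko 2. The value of WT 1 lay above the other three, WT 2 lay between the Eko mice, and the groups overlapped. Mean levels were 7.43 ± 1.19 CPM in WT and 6.51 ± 0.356 CPM in Eko (SD, n = 2 each). The log2 fold change was -0.19 (SE 0.14), with a 95% interval from -0.52 to 0.14, or between 0.699 and 1.10 times the WT level, and an adjusted p of 0.647 in edgeR. The difference rested on WT 1, the library that stood apart, and was -0.017 on the log2 scale without it. Without WT 2 it was -0.33 with an adjusted p of 0.326. The gap between the WT mice in Hk1 was 0.33 on the log2 scale, against a median gap of 0.15 over all genes tested, while in Hk2 it was 0.11.

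Per kb of exon, Hk1 stood at 0.871 ± 0.140 CPM in WT and 0.763 ± 0.0418 CPM in Eko (SD, n = 2 each) and ranked 9650 of 15619 genes. Its neighbours in the order of the 41 genes were Slc2a1, the basal glucose transporter GLUT1, at 1.24 ± 0.184 CPM per kb, and Pfkl, the liver-type phosphofructokinase, at 0.731 ± 0.0869 CPM per kb (SD, n = 4). The range of Hk1 overlapped that of Pfkl and did not reach that of Slc2a1. Both this place and the rank rest on the exon union of Hk1, 8532 bp, whereas its longest transcript is 4278 bp. With that length the value of Hk1 would be higher, and the order was not redone with other lengths.

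Hk3 was near the limit of detection. It lies at chr13:55005985-55021385 on the minus strand (ENSMUSG00000025877.14), and 34 bp of its exons overlap the gene Unc5a on the opposite strand. Hk3 had 0.211 CPM (16 counts) in WT 1, 0.223 CPM (18 counts) in WT 2, 0.209 CPM (18 counts) in Eko 1 and 0.0839 CPM (6 counts) in Eko 2. Eko 2 alone was low, and Eko 1 lay just under the lower WT mouse, so that the groups did not overlap only by a narrow margin. Of all genes tested, 43.8% had groups that did not overlap, and 23% were those with lower values in Eko. The log2 fold change was -0.54 (SE 0.57), with a 95% interval from -1.90 to 0.82 and an adjusted p of 0.767 in edgeR. Without Eko 2 it was -0.054, and without Eko 1 it was -1.34. Summed over both mice, the genotypes had 34 counts in WT and 24 in Eko, a ratio of CPM of 0.702 with an exact counting interval from 0.398 to 1.22, which covers counting error only.

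Because HK3 is known from white blood cells, its level was set beside marker genes of cells that a piece of muscle also holds. The 8 macrophage markers, all tested, summed to 39.0 and 31.8 CPM in WT and 28.9 and 21.5 CPM in Eko, with Cd163 the highest of them. Of these markers, 7 had lower and 1 had higher fitted values in Eko, and 0 passed the threshold. The 8 neutrophil and monocyte markers, of which 3 were tested, summed to 1.77 and 1.496 CPM in WT and 1.43 and 1.08 CPM in Eko, with Itgam the highest. Hk3 and both of these sums were lowest in the same mouse, Eko 2. The 6 adipocyte markers were highest in WT 1, where Hk1 was also highest, with sums of 81.6 and 31.5 CPM in WT and 26.5 and 11.5 CPM in Eko. The 7 endothelial markers summed to 177 and 159 CPM in WT and 153 and 178 CPM in Eko, and the 5 erythroid markers to between 108 and 111 CPM in all mice. The 6 markers of nerve and Schwann cells had higher fitted values in Eko throughout, with sums of 40.3 and 42.7 CPM in WT and 44.5 and 53.7 CPM in Eko, and 0 passed. None of the macrophage, neutrophil and monocyte, endothelial, adipocyte or erythroid markers was at 0 in all libraries, and the part of these cells in the values of Hk1 and Hk3 was not tested. In RNA from whole muscle, fewer cells of a type and less RNA per cell cannot be told apart.

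**Figure D3:**
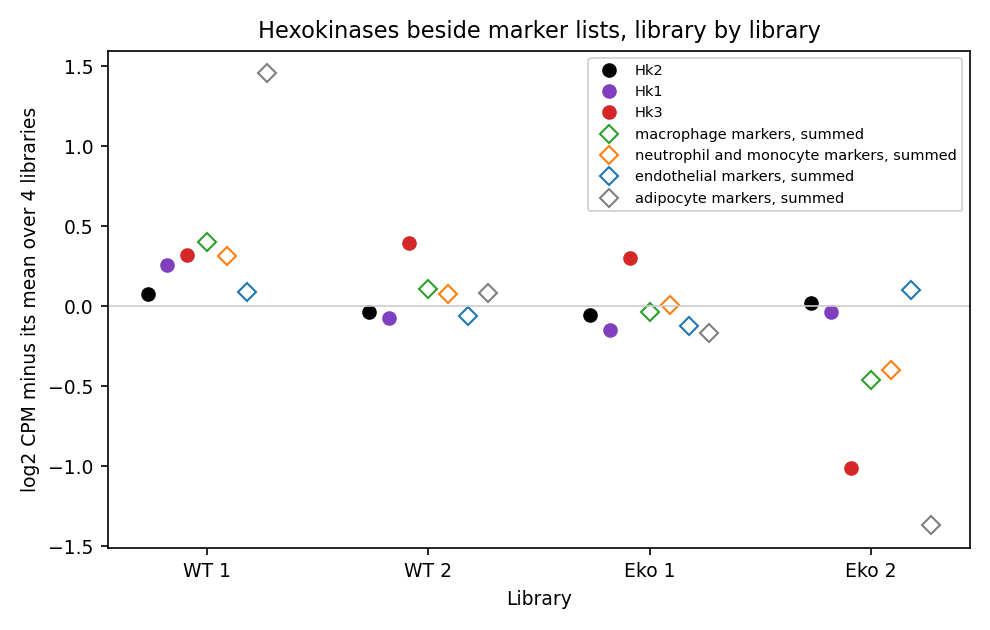
Each point is the log2 CPM of 1 gene, or of the summed markers of 1 cell type, minus its mean over the 4 libraries, with the hexokinases as filled circles and marker lists as open diamonds. Hk2 stays close to 0 in all mice, Hk1 is highest in WT 1, and Hk3 falls to its lowest in Eko 2, where the macrophage, the neutrophil and monocyte and the adipocyte markers are lowest too.

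Hkdc1 and Gckr were not detected above the limit of 3 counts in any mouse. Hkdc1 lies at chr10:62383137-62422491 (ENSMUSG00000020080.8), next to Hk1 on the same strand and 3228 bp from it, and it had 0 counts in WT 1, WT 2, Eko 1 and Eko 2. With 0 counts in both mice of a genotype, the exact Poisson upper limit was 0.0235 CPM in WT and 0.0234 CPM in Eko. Gckr lies at chr5:31297443-31327314 on the plus strand (ENSMUSG00000059434.9) and had 0 counts in WT 1, 2 in WT 2, 0 in Eko 1 and 0 in Eko 2. Both genes stayed under the filter on low counts, so no fold change was fitted for them. Liver markers were as scarce as Gckr: 0 of the 6 hepatocyte markers passed the filter, Fgb and Ttr had 0 counts in all libraries, and the list summed to between 0.0395 and 0.0839 CPM.

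In the fit across all genes, 3 of the 5 members were tested and 0 passed an adjusted p of 0.05 in edgeR, with 0 of 3 at an unadjusted p below 0.05. The background is 67 called of 16120 genes tested, or 0.416%, made up of 0.31% lower and 0.105% higher in Eko, and 1864 genes, or 11.6%, were at an unadjusted p below 0.05. DESeq2, edgeR's likelihood ratio test and limma-voom each also called 0 members.

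The make-up of the family was almost the same in all mice. As a share of the summed level of Hk1, Hk2, Hk3 and Hkdc1 per kb, Hk2 took 98.8% in WT 1, 98.9% in WT 2, 99.0% in Eko 1 and 99.0% in Eko 2. Hk1 took 1.14%, 0.979%, 0.944% and 0.966% in the same order, and Hk3 between 0.0277% and 0.0766%. The mean share of Hk2 was 98.87 ± 0.105% in WT and 98.99 ± 0.0164% in Eko (SD, n = 2 each), a difference of 0.1247 percentage points that was 0.0504 without WT 1 and 0.199 without WT 2. The groups did not overlap in the share of Hk1 or of Hk2, and WT 1 was the farthest from the rest. Hk2 exceeded Hk1 86.9 and 101 times per kb in WT and 105 and 102 times in Eko. These ratios and the shares rest on exon unions of 8532 bp for Hk1 and 5969 bp for Hk2. The longest transcripts are 4278 bp and 5513 bp, lengths under which the ratios would be smaller and the share of Hk1 larger. The summed hexokinase level was 85.3 and 78.9 CPM per kb in WT and 77.8 and 82.1 CPM per kb in Eko, and the groups overlapped. The Eko mean was 2.15 CPM per kb below the WT mean, but 1.04 above it without WT 1 and 0.0215 above it without Eko 1. With 2 mice against 2, an exact permutation test cannot give a p below 0.333, and no other test of the shares or of the sum was run. With the longest transcript of each gene as its length, the share of Hk2 was 97.99% in WT and 98.20% in Eko.

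The 4 hexokinase genes are related along their whole coding sequence, so it was asked whether reads could be assigned to the wrong member. Coding sequences of the main transcripts were most alike for Hk1 and Hk2, with 71.6% identical aligned bases, followed by Hk1 and Hkdc1 with 70.9% and Hk2 and Hkdc1 with 70.7%. Hk3 was the most distant, with between 63.4% and 65.6% identity to the others. Within each gene the first and the last part of the coding sequence, which arose by a duplication in the ancestor of these enzymes, shared between 61.5% and 67.8% of aligned bases. No pair of members shared a run of 50 bases. The longest run common to Hk1 and Hk2 is shown, since it marks the greatest stretch over which a read of either gene could not be placed.
Hk1 and Hk2: agcaatgcctgctacatggaggagatg
It is 27 bases long, and the longest run shared by the other pairs was between 16 and 26 bases. How RSEM divided reads between the members was not tested.

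The promoter windows, taken as the 250 bases before each annotated start in RefSeq on GRCm38.p6 were compared between the members. All 5 members had a window, and Hk1 had 2. The gene's own exons in GENCODE M21 covered 121 bases of the second Hk1 window, 120 of the Gckr window and 34 of the Hkdc1 window. They covered 0 bases of the first Hk1 window and of the Hk2 and Hk3 windows. The window of Hk2 had a GC content of 69.6%, against 47.2% for Hk3, 49.6% for Hkdc1, 49.6% and 62.8% for Hk1 and 56% for Gckr, and a median of 52.4% over all windows. The windows of Hk2, which muscle expressed, and of Hk3, which it scarcely did, are printed 5′ to 3′ on the minus strand of the genome, with GC boxes and CCAAT boxes on either strand in capitals.
Hk2, chr6:82774455-82774704: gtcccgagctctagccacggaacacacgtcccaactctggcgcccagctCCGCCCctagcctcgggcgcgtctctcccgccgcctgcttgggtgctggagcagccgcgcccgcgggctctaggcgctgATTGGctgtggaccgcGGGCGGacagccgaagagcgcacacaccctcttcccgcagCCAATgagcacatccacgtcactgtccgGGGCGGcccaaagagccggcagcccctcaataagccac
Hk3, chr13:55021386-55021635: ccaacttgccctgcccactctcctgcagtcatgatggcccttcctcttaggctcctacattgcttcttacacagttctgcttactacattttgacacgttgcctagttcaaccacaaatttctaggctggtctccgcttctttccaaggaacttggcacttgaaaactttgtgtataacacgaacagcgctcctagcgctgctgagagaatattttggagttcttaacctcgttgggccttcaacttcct
Searched on both strands, the Hk2 window held 3 GC boxes (GGGCGG), 2 CCAAT boxes (CCAAT) and 1 core of the cAMP response element (TGACG). It held 0 E-boxes (CACGTG), 0 TATA boxes (TATAAA) and 0 matches to the MEF2 consensus. Of the 32851 mouse windows of this length, 32.7% held a GC box, 33.8% a CCAAT box, 17.8% the response element core, 6.02% the E-box, 12.4% the TATA box and 2.92% the MEF2 consensus. Both Hk1 windows and those of Hk3 and Hkdc1 held none of these 6 motifs. The Gckr window held 1 CCAAT box, in the part covered by its own exons. The matches describe these letters in these windows, and binding was not measured.

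**Figure D4:**
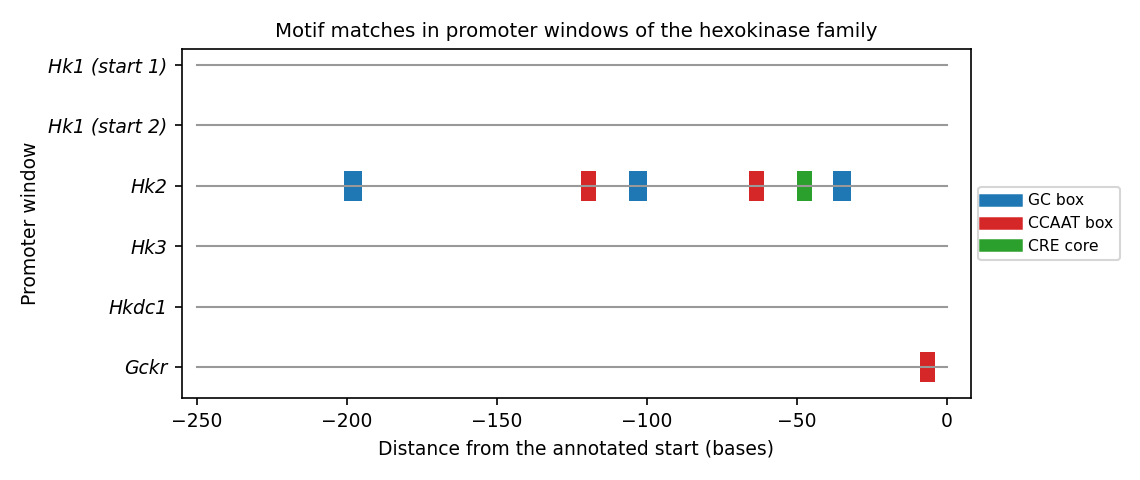
Position of motif matches in the 250 bases before the annotated start of each member, in bases from the start, with GC boxes in blue, CCAAT boxes in red and the core of the cAMP response element in green. All but 1 of the matches lie in the Hk2 window.

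No gene around the hexokinase step was called either. Of 57 genes in 6 lists, 53 were tested, and 0 passed the threshold in edgeR, with 5 of 53 at an unadjusted p below 0.05, against 11.6% of all genes tested. DESeq2, the likelihood ratio test and limma-voom called 0 as well. Their log2 fold changes ran from -0.77 to 0.58 with a median of 8.9e-06, beside a median of -0.0051 over all genes tested. In 9 of the 53 tested genes the Eko mice were both above the WT mice and in 15 they were both below, against 20.8% and 23% of all genes tested.

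Among the glucose transporters, 8 of 10 were tested, with a median log2 fold change of 0.14. Slc2a4 was at 414 and 386 CPM in WT and 398 and 406 CPM in Eko, a log2 fold change of 0.0078 (SE 0.070) with overlapping groups. Slc2a3, the high-affinity transporter GLUT3, was at 12.5 and 18.4 CPM in WT and 18.3 and 19.5 CPM in Eko, a log2 fold change of 0.29 (SE 0.17). WT 1 was the low value, and without WT 2 the log2 fold change was 0.61 with an adjusted p of 0.0282 in edgeR, a fit in which WT 1 is the only WT library, and without WT 1 it was 0.039 with an adjusted p of 0.944. In 4 of the 8 tested transporters the Eko mice both lay above the WT mice, and in 0 of them both below, against 20.8% and 23% of all genes tested. Slc2a6, which did not pass the filter, had 8 and 11 counts in WT and 8 and 7 in Eko, with both Eko mice below both WT mice in CPM.

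The 14 genes of the routes that glucose 6-phosphate can take were all tested, with a median log2 fold change of -0.14. In 7 of them both Eko mice lay below both WT mice and in 1 both lay above, against 23% and 20.8% of all genes tested. Pfkm was at 2270 and 2338 CPM in WT and 2055 and 2128 CPM in Eko, a log2 fold change of -0.14 (SE 0.074, adjusted p 0.527 in edgeR). G6pdx, which opens the pentose phosphate pathway, was at 3.06 and 2.02 CPM in WT and 2.11 and 1.68 CPM in Eko, a log2 fold change of -0.42 (SE 0.25) that became -0.086 without WT 1. Of the genes that act on glucose 6-phosphate in the endoplasmic reticulum, G6pc and G6pc2, the phosphatases of liver and islet, had 0 counts in all libraries. The further phosphatase gene of the list, G6pc3, was at 32.0 and 32.0 CPM in WT and 31.2 and 30.2 CPM in Eko. Slc37a4 was at 64.0 and 72.2 CPM in WT and 77.4 and 70.4 CPM in Eko.

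HK1 and HK2 dock on mitochondria at the channel encoded by the Vdac genes. In the list of docking partners, all 6 were tested. Both Eko mice lay below both WT mice in 3 and above in 0, against 23% and 20.8% of all genes tested. Slc25a4, the muscle ADP/ATP carrier and the most abundant of the list, was at 2164 and 2451 CPM in WT and 2271 and 2199 CPM in Eko with overlapping groups. Tspo, a protein of the outer mitochondrial membrane, was at 5.27 and 5.97 CPM in WT and 4.38 and 4.53 CPM in Eko, a log2 fold change of -0.34 (SE 0.13, adjusted p 0.381 in edgeR).

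Among sugar kinases of other families, all 9 were tested. Both Eko mice lay above both WT mice in 1 and below in 1, against 20.8% and 23% of all genes tested. Adpgk, which phosphorylates glucose with ADP, was at 12.1 and 11.6 CPM in WT and 12.9 and 11.1 CPM in Eko. Galk1, the galactokinase, was at 0.751 and 0.729 CPM in WT and 0.499 and 0.363 CPM in Eko, the widest fitted difference of the lists at -0.77 (SE 0.33, adjusted p 0.435 in edgeR). Per kb of the exon union, Adpgk stood at 1.24 ± 0.0797 CPM (SD, n = 4), above Hk1, and the range of Hk1 did not reach it. This order was not redone with other lengths.

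The 14 regulators of hexokinase genes and glucose uptake were all tested. Both Eko mice lay above both WT mice in 3 and below in 3, against 20.8% and 23% of all genes tested. Prkaa2, the AMPK catalytic subunit of muscle, was at 453 and 453 CPM in WT and 486 and 554 CPM in Eko. Its log2 fold change of 0.20 (SE 0.082, adjusted p 0.422 in edgeR) became 0.10 without Eko 2 and 0.30 without Eko 1. Myc was at 4.65 and 2.26 CPM in WT and 4.38 and 5.96 CPM in Eko, so WT 2 alone was low, and the log2 fold change of 0.58 (SE 0.32) became 0.16 without WT 2 and 1.19 without WT 1. The 5 genes with an unadjusted p below 0.05 were Pgd, Slc25a5, Tspo, Prkaa2 and Akt1, of which Pgd, Slc25a5 and Akt1 are named after their values were seen. The smallest adjusted p was 0.251 for Akt1, a kinase of insulin signalling, at a log2 fold change of -0.40 (SE 0.11).

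**Figure D5:**
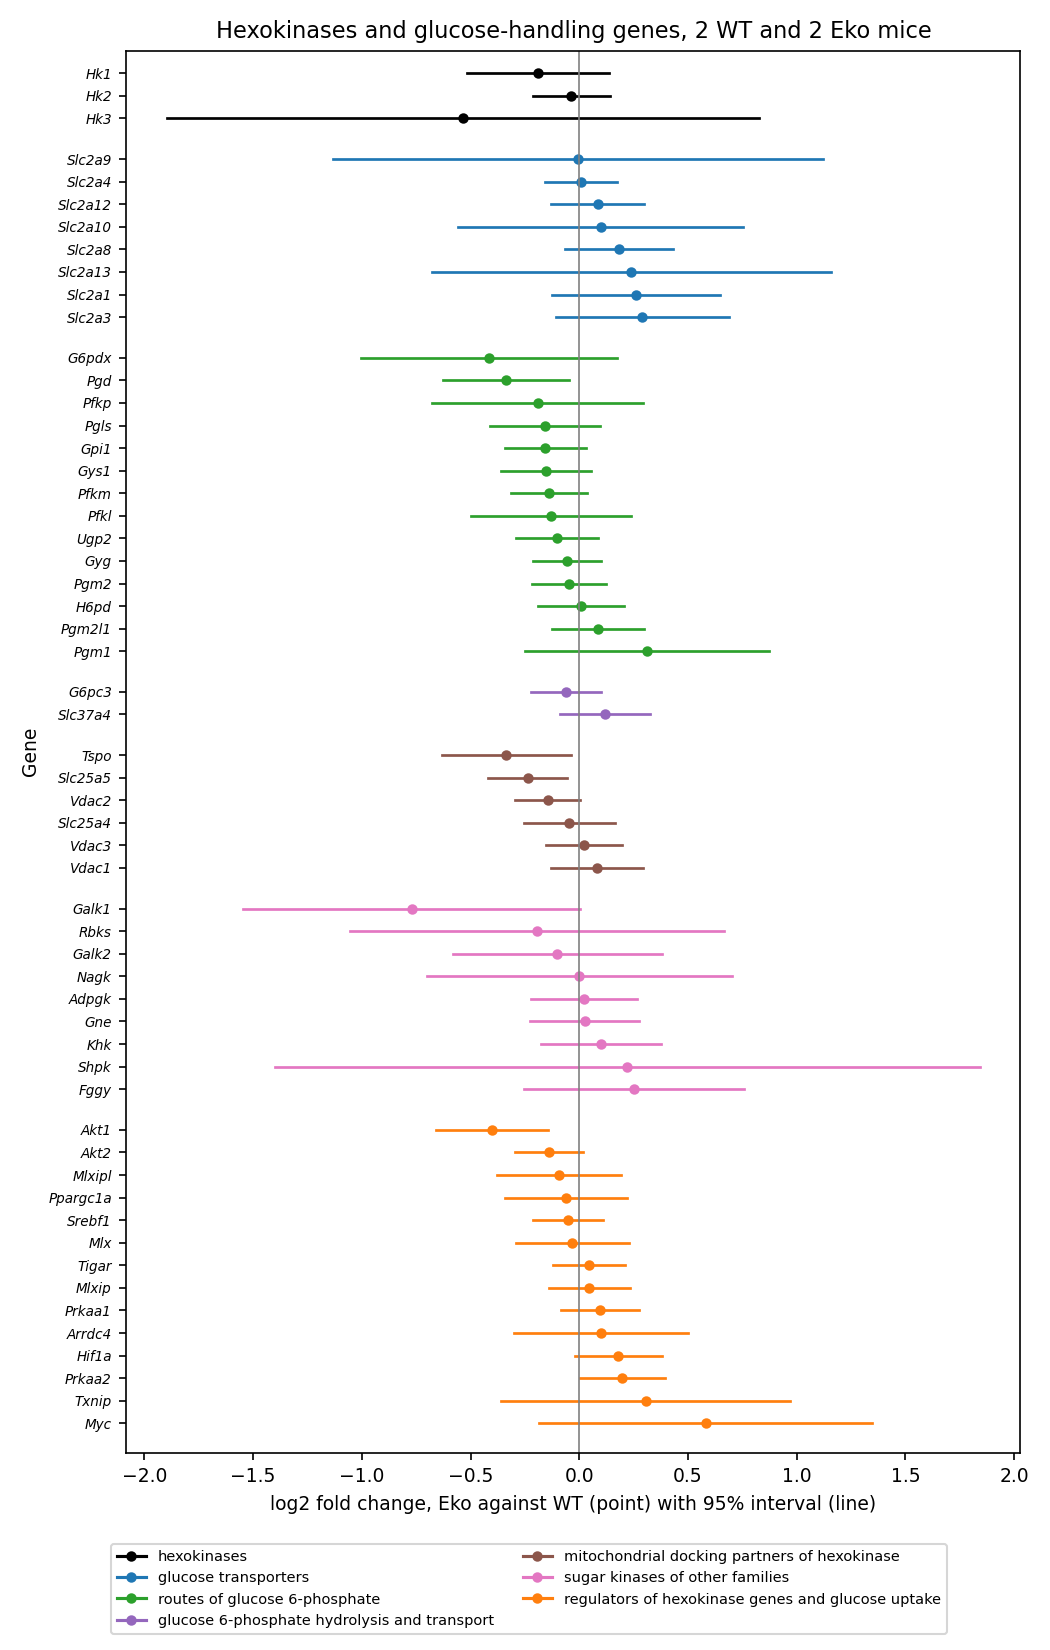
Log2 fold change in Eko against WT (points) with 95% intervals (lines) for the 3 members tested and the 53 tested genes of the lists, coloured by list. The interval of Hk2 runs from -0.21 to 0.14 and that of Hk3 from -1.90 to 0.82, and 0 of these genes passed the threshold.

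The genes whose level followed that of Hk1 and Hk2 most closely over the 4 mice were found by the root mean square difference of log2 CPM centred on each gene's mean, among genes with a mean of at least 10 CPM. For Hk2 they were Ipmk at 0.0029, Plcb4 at 0.0049 and Tpcn1 at 0.0083. So many genes were as flat that 3514 of 6574 lay within 0.1 of Hk2. For Hk1 they were Por, the electron donor of microsomal P450 enzymes, at 0.0176, Ssh1, a cofilin phosphatase, at 0.0216 and Padi2, a peptidylarginine deiminase, at 0.0240, and 500 of 6575 lay within 0.1. Por had 18.3 and 14.8 CPM in WT and 14.1 and 15.5 CPM in Eko, the same order of mice as Hk1, with WT 1 the highest and Eko 1 the lowest. The measure covers 4 libraries of which WT 1 stands apart.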

How the data were processed

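Quadriceps polyA RNA of 2 WT and 2 Mef2dα2 Eko mice was sequenced in paired ends from stranded libraries, with 1 library per mouse, and genotypes were taken from the sample labels. The authors checked reads with FastQC, aligned them to mm10 and ran RSEM on an Ensembl annotation of GRCm38 to estimate counts per gene. The deposited expected counts carry no normalization. The submitters' processing notes list STAR 2.6.1a, and a strand setting for counting was not given in the sources used here. All deposited values were whole, so rounding them for edgeR changed none.

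Counts were analysed in R 4.3.3 with edgeR 4.0.16, using TMM normalization, the default filter on low counts, genotype as the only term, the quasi-likelihood test and Benjamini-Hochberg adjustment over 16120 genes with a threshold of 0.05. P-values measure the spread between these mice. Alternatives used DESeq2 1.42.0, limma 3.58.1 (voom), the likelihood ratio test, other scalings and filters, a replicate block and leaving out each mouse. The prior count behind log2 fold changes was 0.125. Levels per kb used the union of exons in GENCODE M21. This annotation differs from the one the authors counted on, so gene limits can differ. The script was tested on simulated data. Members, lists and tests were chosen with earlier results of these data known. Named genes of a list are the most abundant, the one with the widest fold change and any past the threshold. Other genes of the lists, such as Slc2a6 and G6pc3, are named outside this rule. Of the rule for the family, 1 further gene is not reported here. Promoters are from RefSeq.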

Additional observations from a re-analysis of the deposited data

How the results depend on the processing

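Of the members, 0 were called by edgeR or by any of the 12 alternatives, among which the adjusted p ran from 0.326 to 0.988 for Hk1, from 0.751 to 0.982 for Hk2 and from 0.682 to 0.994 for Hk3. Hk1 was at an unadjusted p of 0.0409 without WT 2. DESeq2 gave no adjusted p for Hk3, and Hk3 did not pass a minimum of 1 CPM in 2 libraries. Over the fits that left out 1 mouse, the log2 fold change ran from -0.33 to -0.017 for Hk1, from -0.076 to 0.021 for Hk2, from -1.34 to -0.054 for Hk3, from -0.028 to 0.060 for Slc2a4, from -0.13 to 0.061 for Slc25a4, from -0.076 to 0.12 for Adpgk, from -0.061 to 0.11 for Mef2d, from 0.039 to 0.61 for Slc2a3, from 0.10 to 0.30 for Prkaa2, from 0.16 to 1.19 for Myc, from -0.67 to -0.086 for G6pdx and from 0.035 to 0.22 for Slc37a4. Hk2 changed sign without WT 1 (0.021) and without Eko 1 (0.016), Slc2a4 without WT 2 (-0.028) and without Eko 2 (-0.0061), Slc25a4 without WT 2 (0.061), Adpgk without Eko 1 (-0.076), and Mef2d without WT 2 (-0.061) and without Eko 1 (-0.0029). These are values close to 0, and the cause was not tested. With the longest transcript as length, the Hk2 share was 0.209 percentage points higher in Eko, against 0.1247 with the exon union, which ran from 0.0504 to 0.199 when 1 mouse was left out.

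The number of genes called over the whole table depended on the processing. It was 67 with edgeR, 318 with DESeq2, 312 with the likelihood ratio test, 799 of 24621 genes without a filter, 23 of 12241 genes at 1 CPM in 2 libraries, and between 99 and 299 when 1 mouse was left out. The replicate numbers were shared by the genotypes, and deviations of mice with the same number had a correlation of 0.066 over genes. With 2 pairs, this value cannot show whether mice of the same number had more in common than the number. With replicate as a block, the fit called 186 genes and no member. Of the lists, 3 genes were called without a filter (Akt1 at -0.40, Myc at 0.58 and Txnip at 0.31) and between 0 and 1 when 1 mouse was left out, which was Txnip at 0.88 without WT 1 and Slc2a3 at 0.61 without WT 2. Each fit that left out a mouse rests on 1 library in that genotype, assumed to vary like the other. Hkdc1 and Gckr were at or under 3 counts in every library and Hk3 at or under 18, so their values carry wide counting error.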
